A study of Mus musculus with 2 samples.

Results

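Granzymes are serine proteases that are stored in the granules of cytotoxic lymphocytes, and perforin is the pore-forming protein that lets them enter a target cell. Gzmb encodes granzyme B, which cleaves after aspartate and activates caspases, and Gzma and Gzmk encode the tryptases granzyme A and granzyme K. Gzmc, Gzmd, Gzme, Gzmf, Gzmg and Gzmn are rodent granzyme genes that lie beside Gzmb, and Prf1 encodes perforin. These genes are best known from CD8 T cells and natural killer cells, and helper T cells can also switch on Gzmb after activation.

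The elements described here are the rows of a STARR-seq element table whose midpoint lies within 50 kb of an annotated transcript start (GENCODE M21, mm10) of any of these 10 genes. There were 11 such elements among the 18431 of the table, 10 with a positive and 1 with a negative fold. In STARR-seq, genomic fragments are cloned inside a reporter transcription unit on a plasmid, so that each fragment's own RNA reports how far it raises or lowers transcription. The cells were activated T-helper 2 cells, primary cells of strain C57BL/6NJ with sex and age not recorded, carrying the plasmids after transient transfection. They were given antibodies to CD3e (0.25 ug/mL) and CD28 (1 ug/mL) for 3 days, interleukin-2 and an antibody to interferon-gamma (2 ug/mL) for 4 days, and also interleukin-4. Both output libraries form 1 group and share 1 donor record, so there is no other condition to compare.

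The table gives each element 1 signed fold and 1 q-value (a p-value adjusted for the number of regions) from both libraries together. No value per library and no read count stands in it, so the spread between the 2 libraries and the depth behind each value are unknown, and no error or test of a difference can be given. Folds and q-values below are as the authors deposited them. The sources used here state neither the log's base nor which way the ratio runs, and the fold is read as log2 of output RNA over input DNA. The table holds only regions with a q-value below 0.01, and whether a stretch without an element was covered by the plasmid pool is unknown. The sample labels give a size range of 200 to 400 bp. If this is the size of the cloned fragments, they reach beyond an element narrower than 200 bp. No single fragment would then span an element wider than 400 bp. Sites were searched in each element as listed, not in the fragments. The cell type label could not be checked against marker genes, since an episomal reporter gives no level of the cell's own genes.

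The 11 elements fell into 3 loci. Chromosome 13 held 4 positive elements around Gzma and Gzmk, chromosome 14 held 6 positive elements in the cluster from Gzme to Gzmb, and chromosome 10 held the negative element near Prf1. The sequences on which the description turns are shown first. Capitals mark matches to consensus sites, and matches were searched on both strands. AP-1 (TGACTCA) is bound by FOS, JUN and BATF dimers that T-cell receptor signals induce. ISRE (GAAA on either side of 2 free bases) is bound by interferon regulatory factors. The STAT6 spacing (TTC and GAA on either side of 4 free bases) is the arrangement used by STAT6, the factor downstream of interleukin-4. RUNX (TGTGGTT) is bound by RUNX factors, which act at cytotoxic genes. CRE (TGACGTCA) is bound by CREB and ATF proteins, and GATA3, the regulator of T-helper 2 cells, binds AGATAA and, as the other form searched, TGATAA.

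The Gzmb promoter lies inside the element with the lowest q-value of all 11, and is set beside those of Gzmc and Gzmd, at which no element was listed. The windows are taken from RefSeq (GRCm38.p6, the same build as mm10), end at the base before the transcript and run 5′ to 3′ along the gene, on the minus strand. That of Gzmd stops short of an untranslated exon in GENCODE. Capitals mark AP-1, CRE and RUNX matches.
Gzmb, chr14:56262335-56262584: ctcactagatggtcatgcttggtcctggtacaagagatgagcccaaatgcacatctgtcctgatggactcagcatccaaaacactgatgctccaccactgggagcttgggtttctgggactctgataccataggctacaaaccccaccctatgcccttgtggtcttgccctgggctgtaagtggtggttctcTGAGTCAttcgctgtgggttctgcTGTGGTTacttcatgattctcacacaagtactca
Gzmc, chr14:56234658-56234907: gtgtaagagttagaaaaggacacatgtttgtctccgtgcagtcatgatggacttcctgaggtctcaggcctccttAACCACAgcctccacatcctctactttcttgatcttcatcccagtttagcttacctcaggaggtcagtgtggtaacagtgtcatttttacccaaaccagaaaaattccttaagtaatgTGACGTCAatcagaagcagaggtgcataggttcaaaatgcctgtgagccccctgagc
Gzmd, chr14:56132609-56132843: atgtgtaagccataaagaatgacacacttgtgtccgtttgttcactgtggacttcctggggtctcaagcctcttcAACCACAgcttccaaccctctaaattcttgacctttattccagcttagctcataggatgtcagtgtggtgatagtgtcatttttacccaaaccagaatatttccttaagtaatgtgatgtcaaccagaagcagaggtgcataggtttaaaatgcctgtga

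The elements of the Gzma and Gzmk locus are shown because all 3 near Gzmk carry an ISRE match and the locus holds the highest fold. ISRE matches also stood in the elements 13.8 and 48.2 kb upstream of Gzmb. The sequences of the locus read along the minus strand, the strand of both Gzma and Gzmk. The elements 3.97 kb upstream of Gzma and 45.5 kb upstream of Gzmk are printed whole, and the others as the stretch around their ISRE. Capitals mark RUNX in the first, AP-1 and ISRE in the second, ISRE in the third, and ISRE and the STAT6 spacing in the last.
Gzma 3.97 kb, chr13:113104876-113105025: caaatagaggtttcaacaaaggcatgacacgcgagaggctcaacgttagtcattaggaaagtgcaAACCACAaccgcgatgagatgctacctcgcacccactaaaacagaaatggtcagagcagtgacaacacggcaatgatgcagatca
Gzmk 2.72 kb, chr13:113183597-113183716: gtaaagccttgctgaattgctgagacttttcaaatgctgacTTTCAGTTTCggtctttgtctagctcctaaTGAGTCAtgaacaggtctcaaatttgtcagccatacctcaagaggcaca
Gzmk 17.2 kb, chr13:113198019-113198098: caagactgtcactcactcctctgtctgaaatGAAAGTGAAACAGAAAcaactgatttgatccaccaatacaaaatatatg
Gzmk 45.5 kb, chr13:113271301-113271475: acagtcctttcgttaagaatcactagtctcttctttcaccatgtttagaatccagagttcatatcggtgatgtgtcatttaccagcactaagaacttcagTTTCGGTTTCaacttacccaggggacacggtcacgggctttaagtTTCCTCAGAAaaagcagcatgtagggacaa

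The most distant Gzmb element also held AP-1 beside ISRE, and its middle stretch is given on the minus strand with both matches in capitals.
Gzmb 48.2 kb, chr14:56310348-56310467: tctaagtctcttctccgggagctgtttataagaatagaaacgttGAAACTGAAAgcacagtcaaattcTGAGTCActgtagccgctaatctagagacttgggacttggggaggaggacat

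The granzyme cluster has grown by gene duplication, and the elements near Gzmn and Gzmf contain copies of 1 stretch. That stretch is shown from both elements and from its copy at Gzmd, where no element was listed. It is given on the plus strand, without untranslated exons, and capitals mark AP-1 and GATA matches.
Element near Gzmf, chr14:56205071-56205262: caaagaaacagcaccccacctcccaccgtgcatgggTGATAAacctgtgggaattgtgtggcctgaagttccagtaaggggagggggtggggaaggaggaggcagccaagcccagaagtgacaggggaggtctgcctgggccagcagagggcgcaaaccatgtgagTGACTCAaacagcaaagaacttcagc
Element near Gzmn, chr14:56177702-56177888: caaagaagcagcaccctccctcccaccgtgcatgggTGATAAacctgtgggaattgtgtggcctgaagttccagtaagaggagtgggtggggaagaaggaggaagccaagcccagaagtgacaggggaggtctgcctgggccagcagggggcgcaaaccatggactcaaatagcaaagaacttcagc
Copy at Gzmd, chr14:56129371-56129555: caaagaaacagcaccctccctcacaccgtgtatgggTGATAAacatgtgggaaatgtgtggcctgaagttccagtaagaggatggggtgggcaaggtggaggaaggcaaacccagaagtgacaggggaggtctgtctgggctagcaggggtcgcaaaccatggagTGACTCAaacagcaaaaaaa

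Of the 10 genes, 8 (80%) reached a positive element inside the 50 kb window, namely Gzma, Gzmk, Gzmb, Gzmc, Gzmd, Gzmf, Gzmg and Gzmn. Over all 21911 protein-coding genes the share was 55.1%. Neighbouring genes share elements here, so the 7 cluster genes are not 7 separate observations. Only Prf1 had a negative element (1 of 10 genes), against 39.9% of all protein-coding genes, and Gzme had neither kind. Among the elements themselves 10 of 11 were positive, where 71.5% of the whole table was positive and 28.5% negative. These shares, and every higher or lower fold below, hold for the direction assumed for the ratio. With the ratio turned, the same 10 elements would be negative with a median log2 fold of -1.25, the Prf1 element would be the only positive one, and the shares of the whole table would swap too. Gzmb had 4 positive elements in reach, a number that 5.96% of protein-coding genes reached or passed. Gzmk and Gzmc had 3 each (3 or more in 13.6% of protein-coding genes), Gzmf, Gzmg and Gzmn 2 each (2 or more in 28.4%), and Gzma and Gzmd 1 each, the median of all protein-coding genes.

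**Figure D1:**
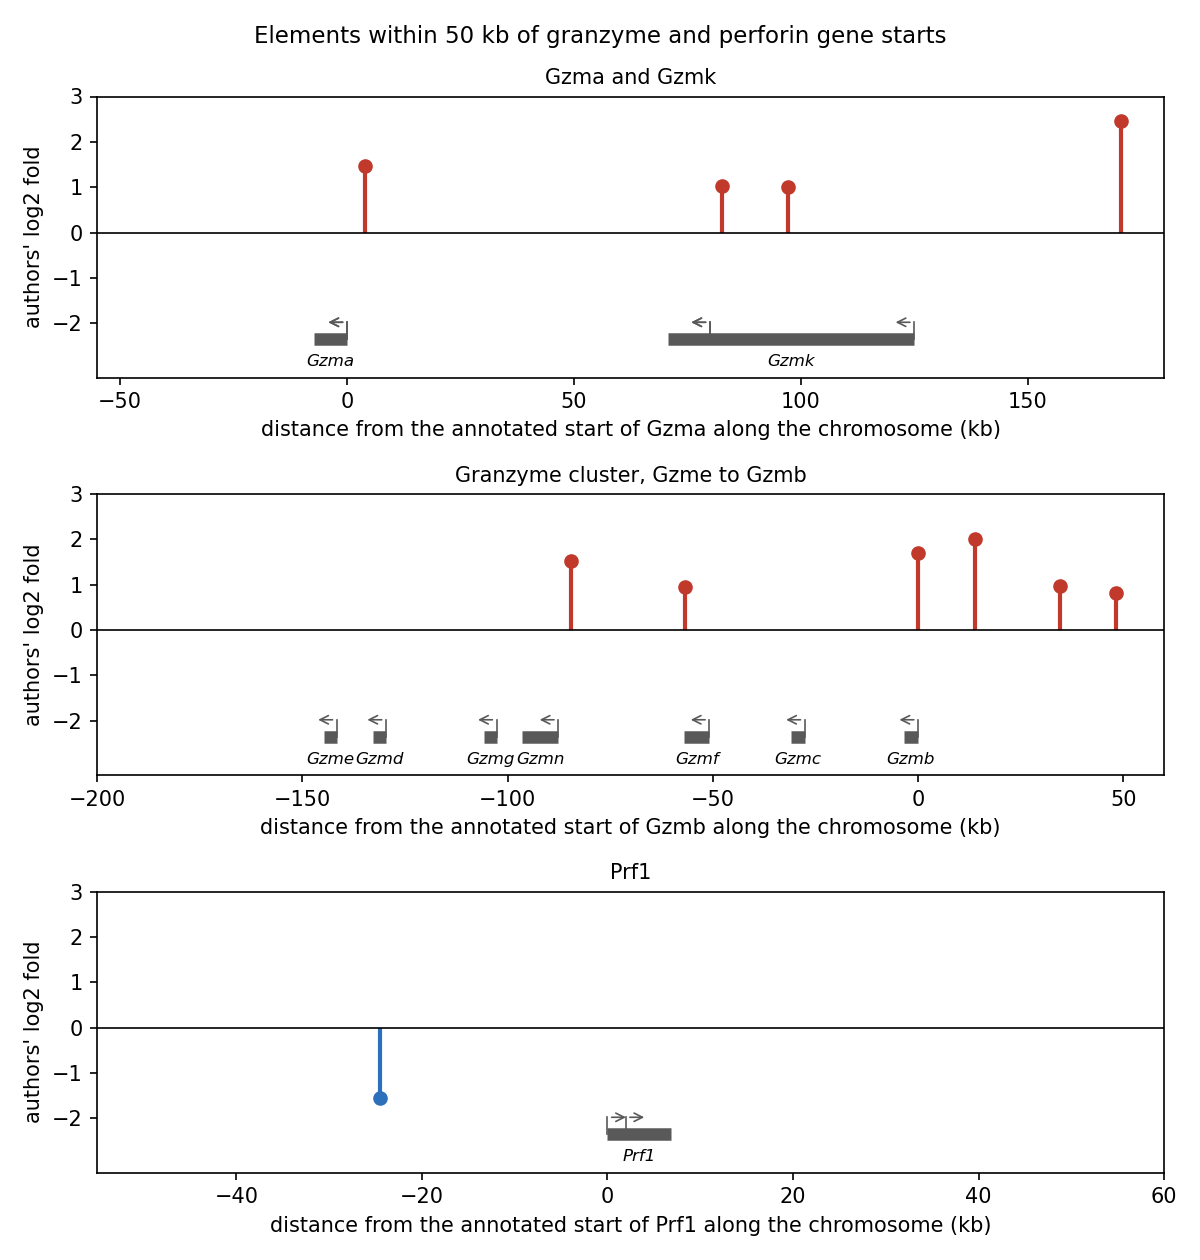
Authors' log2 fold of each element (points on stems, red positive, blue negative) against distance from the start of Gzma, Gzmb or Prf1 along the chromosome in kb, with gene bodies as grey bars and annotated starts as arrows. All 4 elements on chromosome 13 and all 6 on chromosome 14 lie above 0, and the only element near Prf1 lies below 0 at -1.55.

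The log2 folds of the 10 positive elements ran from 0.82 to 2.45 with a median of 1.25, and that of all positive elements on assembled chromosomes had a median of 1.20. The granzyme elements thus sat around the middle of the positive range. The highest, 45.5 kb upstream of Gzmk, was at or above 88.5% of positive elements by fold, and the lowest, 48.2 kb upstream of Gzmb, at or above 19.1%. By q-value the Gzmb promoter element led, and 12.7% of positive elements had a lower q-value. Of the other 9, that near Gzmn had the highest q-value, with 89.2% of positive elements below it.

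**Figure D2:**
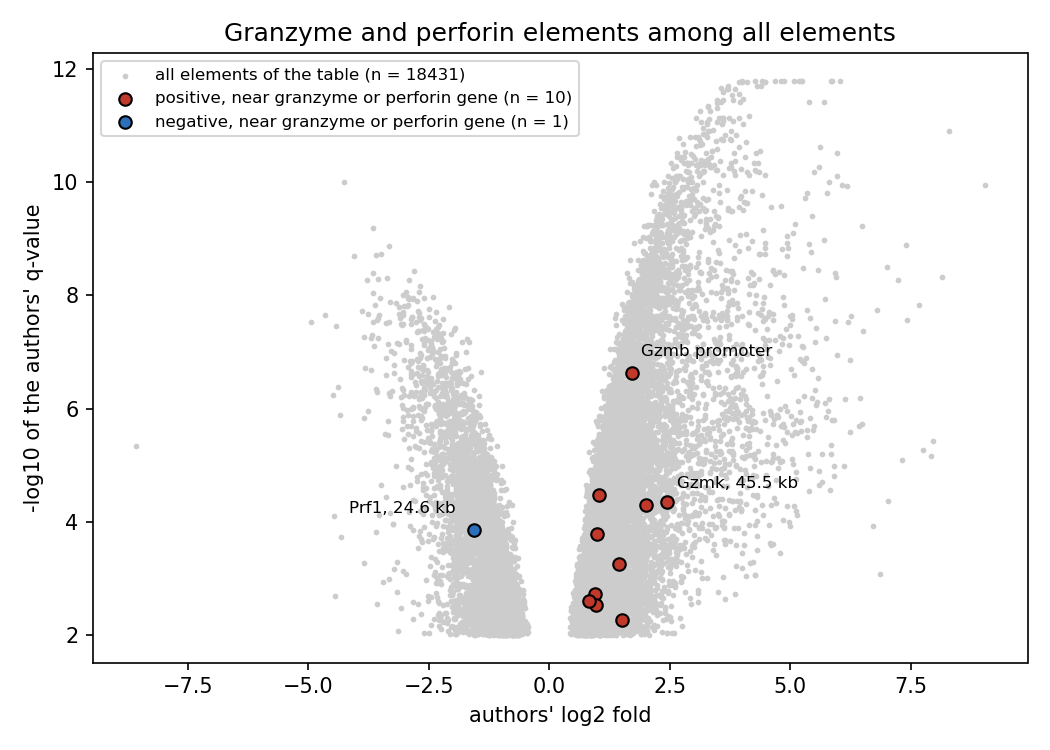
Authors' log2 fold (x axis) against -log10 of the authors' q-value (y axis) for all 18431 elements in grey, with the 10 positive (red) and 1 negative (blue) elements near granzyme and perforin genes on top. The granzyme elements lie inside the cloud of positive elements, between log2 0.82 and 2.45.

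At the gene for granzyme B, an element of 750 bp spanned the promoter (chr14:56261951-56262700) with its midpoint 65.5 bp upstream of the GENCODE start. It had a log2 fold of 1.71 (3.27-fold) and a q-value of 2.35e-07, and it overlapped the first exon with its 5′ untranslated part. It was the only one of the 10 positive elements at a promoter. It held 8 kinds of the 18 consensus sites searched, the most of all 11 elements: AP-1, STAT (TTCNNNGAA), the STAT6 spacing, GATA, RUNX, ETS (CCGGAAG or CAGGAAG), MAF (TGCTGAC) and E-box (CAGGTG or CAGCTG). Among positive elements of like width (within 10%), AP-1 was in 36.8%, STAT in 31.1%, the STAT6 spacing in 21.3% and RUNX in 23.6%. E-box was in 62.7% of these, ETS in 49.3%, GATA in 42.9% and MAF in 14.9%.

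In the printed promoter, the AP-1 match lies 52 bp and the RUNX match 28 bp before the RefSeq start. That start (chr14:56262334) differs from the GENCODE start (chr14:56262260), from which both matches lie farther upstream. Of 32851 RefSeq promoter windows of 300 bp (250 before to 50 after a start), 5.20% held AP-1 and 5.27% held RUNX. RefSeq windows of all 10 genes matched by symbol, and only that of Gzmb overlapped an element. The promoters of Gzmc, Gzmd, Gzme, Gzmf and Gzmg resembled each other, with identities from 84.4% to 95.6%. These count only aligned bases, 225 to 249 of the 250 bp before the start. Their identity with the Gzmb promoter was 55.5% to 62.5% over 211 to 229 aligned bases in alignments with gaps, which is close to what Gzmn gave with Gzmb (60.7%). None of these 6 cluster promoters held the AP-1 word.

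A full CRE stood in the promoters of Gzmc, Gzmf and Gzmg, 50, 75 and 70 bp before the start, and in 1.79% of all promoter windows. At the aligned position Gzmd had C4T and Gzme had G5A, counted from 1 at the first base of the CRE of Gzmc on the gene's strand. The promoters of Gzmc, Gzmd, Gzme, Gzmf and Gzmg also held a RUNX match farther out, 169 bp before the start in Gzmc and Gzmd. No element was listed at any of these 5 promoters, with or without a full CRE. Their coverage by the plasmid pool is unknown, as is the counting of reads that fit several of these similar promoters. The lack of a listed element therefore does not show that they were inactive. A match of letters is a description and does not show that a factor binds.

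Upstream of Gzmb lay a further 3 positive elements. The one 13.8 kb upstream (chr14:56275726-56276475) had the highest fold of the cluster, log2 2.00 (4.01-fold, q-value 5.05e-05). It falls in the exon of Gm48200, a processed pseudogene, and 49.1% of it was repeat-masked. This element had 143 other matches in the genome at 80% identity or more over at least 50% of its length, 5 of them on chromosome 14, and none at 90% identity over 80%. The sources used here do not say how reads that fit several copies were counted, and the part of such reads in this value was not tested. The elements 34.7 kb upstream (chr14:56296451-56297450, log2 0.98, q-value 0.00293) and 48.2 kb upstream (chr14:56310276-56310625, log2 0.82, q-value 0.00255) were intergenic, with no looser match elsewhere. The first of these held the only T-box match (TCACACC, the site of T-bet and eomesodermin) among the 11 elements.

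The gene of granzyme C had no positive element nearer than 27.7 kb, and that nearest one was the Gzmb promoter element. Gzmg and Gzmd, 18.2 and 45.1 kb from theirs, likewise reached only elements that lay nearer to another member gene. For Gzme the nearest positive element was 57.1 kb away, outside the window. It was the same element near Gzmn (log2 1.51).

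The element near Gzmn (chr14:56177551-56177950, log2 1.51, q-value 0.00553) lies 3.15 kb upstream of its start, inside the antisense transcript Gm4022 and next to the 3′ end of the unprocessed pseudogene Gm8961. The element near Gzmf (chr14:56204976-56206150, log2 0.95, q-value 0.00193) covers the 3′ end of Gzmf, 5.85 kb downstream of its start, and its midpoint lies in an intron of that gene. The elements aligned with each other over 254 bp at 92.5% identity in the direct comparison. The part of this stretch printed above recurs at the 3′ ends of Gzme, Gzmd, Gzmg and Gzmn, with 90.1% to 91.6% identity to the copy at Gzmf, while the copy in the element near Gzmn had 95.2%. Elements were listed at 2 of these 6 copies.

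The GATA word TGATAA was present in all 6 copies. The AP-1 word was present in 5, among them the 4 copies with no element, and absent from the element near Gzmn, whose sequence has a gap at that position. Presence of either word did not separate the copies with a listed element from those without. Whether the copies without one were covered by the plasmid pool is unknown, and so is how reads that fit several copies were counted. The fold of the element near Gzmn was the larger of the pair. Each of these elements had 5 other matches at 80% identity over 50% of its length, all on chromosome 14, and the part of reads shared between copies was not tested.

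Near Gzma, the only element was 150 bp wide and intergenic, 3.97 kb upstream (chr13:113104876-113105025, log2 1.46, 2.74-fold, q-value 0.000566). Its only match among the 18 sites was RUNX, 6.5 bp from its centre. RUNX was in 6.00% of positive elements of like width. Its ratio of observed to expected CpG, 0.833, was the highest of the 10 positive elements, whose median was 0.315.

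Near Gzmk, 3 elements were positive. The nearest one, 2.72 kb upstream of the inner starts (chr13:113183301-113183975), had a log2 fold of 1.04 (2.05-fold) and the lowest q-value of the locus, 3.32e-05. The next, 17.2 kb upstream (chr13:113197776-113198400), had a log2 fold of 0.99 and a q-value of 0.000163. Both lie in an intron of the longest Gzmk transcript, and also within 50 kb of Esm1, which encodes an endothelial proteoglycan. The element 17.2 kb upstream is nearer to a start of Esm1 (11.6 kb) than to any start of Gzmk. The third (chr13:113271301-113271475) was intergenic, 45.5 kb upstream of the outermost Gzmk start and 21.8 kb from the start of BC067074. It had the highest fold of all 11 elements, log2 2.45 (5.47-fold, q-value 4.43e-05), and was 175 bp wide.

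All 3 Gzmk elements held an ISRE, and it was absent from the Gzma element. ISRE was in 18.1% of positive elements as wide as that 2.72 kb upstream, and in 18.5% for that 17.2 kb upstream. ISRE was not their only site. The element 2.72 kb upstream also held AP-1, GATA, ETS, MAF and E-box matches, and that 17.2 kb upstream the STAT6 spacing, RUNX and E-box. In the element 17.2 kb upstream 2 ISRE matches overlapped in the printed run, which reads GAAAGTGAAACAGAAA. In the element 45.5 kb upstream the ISRE and the STAT6 spacing were its only matches, and of positive elements of like width 12.5% held ISRE and 5.25% the STAT6 spacing. The number of members is too small to read these shares as more than a description.

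The only element near Prf1 was negative. It was 250 bp wide (chr10:61273151-61273400), 24.6 kb upstream of the Prf1 start, and had a log2 fold of -1.55 with a q-value of 0.000141. It lies at the promoter of Adamts14, a metalloprotease gene, 33.5 bp from a start of that gene, so it is nearer to Adamts14 than to the perforin gene. Its GC content was 73.2%, above every granzyme element and above the median of all negative elements (66.3%). It held SP/KLF (GGGCGG) and E-box matches, in 45.5% and 31.3% of negative elements of like width. Its stretch without untranslated sequence is shown on the minus strand, as the only member with a negative fold. The E-box, in capitals, spans the end of the first Adamts14 coding exon and the start of the intron.
Prf1 24.6 kb, chr10:61273151-61273237: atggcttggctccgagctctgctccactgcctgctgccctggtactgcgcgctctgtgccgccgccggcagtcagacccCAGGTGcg

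The nearest positive element to Prf1 was 153 kb downstream, outside the window, with a log2 fold of 0.74. The Prf1 promoter window itself overlapped no element and held ETS and E-box matches. For the granzyme genes the nearest negative element was far away in turn, at 236 kb or more from every start of the 9 genes.

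Wider elements hold more sites, so each count over the 10 positive elements is set beside 2 shares: that of all positive elements, and that of positive elements of like width, averaged over the 10. ISRE was in 5 of 10 (15.6% of all, 17.1% at like width) and RUNX in 4 (16.1% and 18.2%). MAF was in 3 (10.6% and 11.8%), the STAT6 spacing in 3 (14.2% and 16.3%), STAT in 4 (23.5% and 24.5%) and GATA in 5 (30.8% and 34.0%). AP-1 was in 4 (35.2% and 33.9%), ETS in 4 (29.7% and 37.1%), E-box in 4 (42.7% and 50.1%) and SP/KLF in 2 (17.4% and 26.5%), all near these shares. T-box (7.99% and 9.63%), NFAT (TGGAAAA, 10.8% and 12.9%) and TCF7/LEF1 (CTTTGAT, 8.08% and 9.24%) were in 1 each. The sites in none of the 10 were rare among all positive elements: CRE (3.01%), NF-kB (GGGA and TTCC on either side of 2 free bases, 3.12%), OCT (ATGCAAAT, 2.92%), NR4A (AAAGGTCA, 4.38%) and YY1 (AAGATGGC, 4.79%). With 10 elements, a count of 0 or 1 is near these shares. At least 1 of AP-1, STAT and ISRE was in 8 of 10, against 58.3% of all positive elements. The median width of the granzyme elements was larger (650 bp against 450 bp), though single widths ran from 150 to 1175 bp. Among positive elements of like width that share ran from 35.7% to 69.3%, with a median of 63.0%. The elements without any of the 3 were those near Gzma and Gzmn.

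AP-1 and ISRE stood close together in the element 2.72 kb upstream of Gzmk, 20 bp apart, and in that 48.2 kb upstream of Gzmb, 14 bp apart, as printed above. Of all 13170 positive elements on assembled chromosomes 4.30% held both words, and 153 (1.16%) held them within 30 bp. Of 5244 negative elements 1 did. This spacing was looked at after the sites of the granzyme elements were seen.

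**Figure D3:**
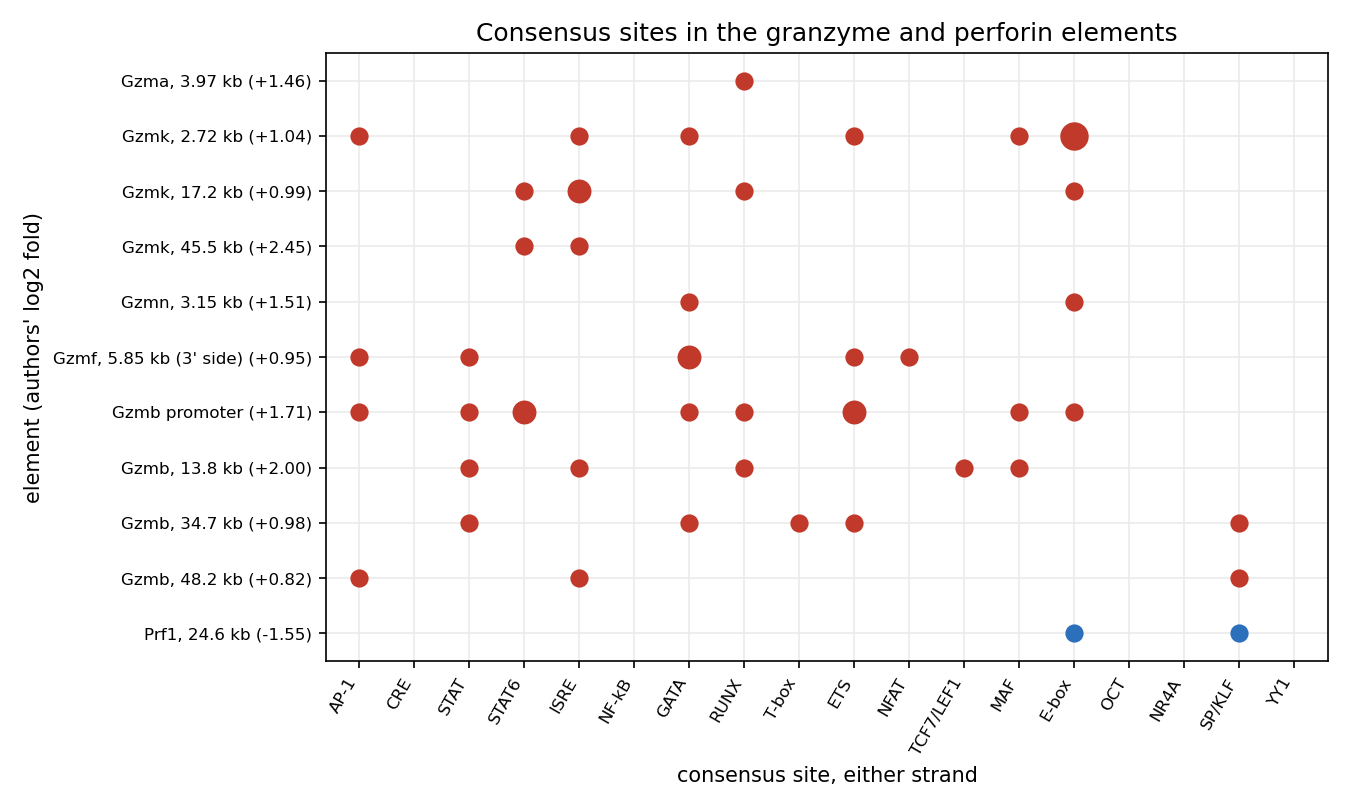
Consensus sites (x axis) found on either strand in each of the 11 elements (y axis, named by the nearest member gene and the distance to its start, with the authors' log2 fold). A point marks a match, larger points mark more matches, red is positive and blue negative. The Gzmb promoter element has the most kinds of site, 8, and ISRE appears in all 3 Gzmk elements.

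The GC content of the granzyme elements ran from 42.8% to 54.0% with a median of 48.6%, and all positive elements had a median of 47.5%. Their ratio of observed to expected CpG had a median of 0.315, above the 0.231 of all positive elements. It was 0.507 around Gzma and Gzmk and 0.219 in the cluster. The chromosome 13 elements were the poorer in GC (42.8% to 47.3%) and those of the cluster richer (47.5% to 54.0%). These ranges all but met, at 47.3% for the Gzma element of only 150 bp and 47.5% for that 34.7 kb upstream of Gzmb. No difference was tested, since elements of 1 locus share their surroundings.

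**Figure D4:**
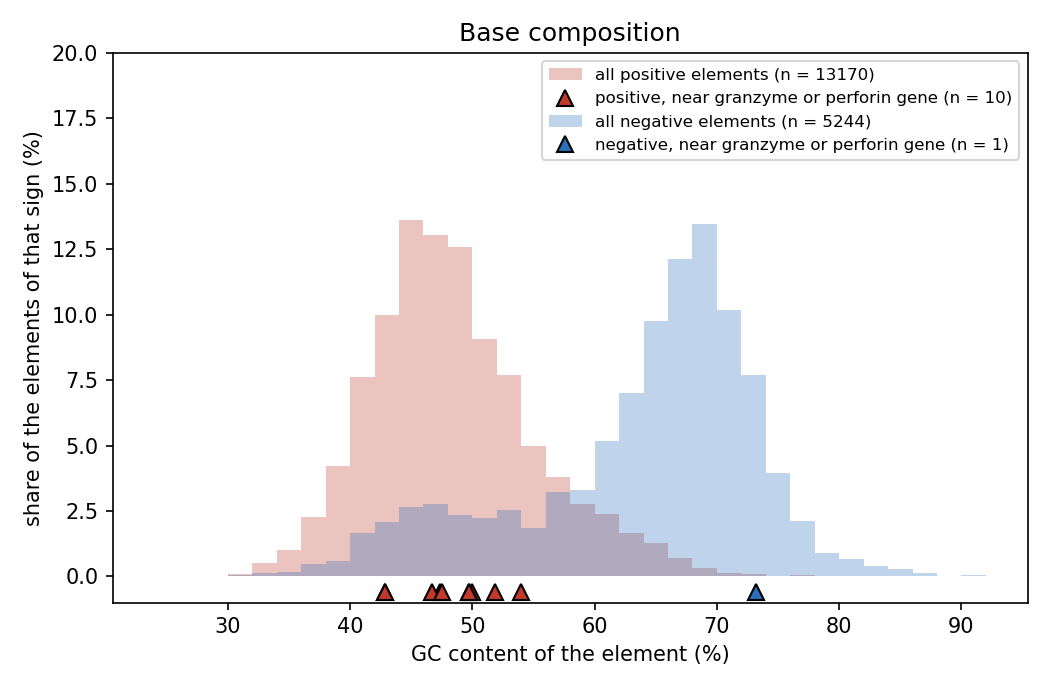
GC content of elements in percent (x axis) against the share of all positive (red) or all negative (blue) elements in each bin of the histogram (y axis, percent), with triangles for the 11 elements near granzyme and perforin genes. The 10 positive triangles lie between 42.8% and 54.0%, and the negative one at 73.2%.

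A list of 28 other genes of cytotoxic granules, their release and their regulators was set beside the granzymes. All 28 matched the annotation, and 25 had a positive element within 50 kb (89.3%), 13 a negative one (46.4%), and Ctsc and Crtam neither. The positive share stood above that of all protein-coding genes given earlier and the negative share near it. Both are descriptions, with no allowance for gene density or shared elements. The 25 genes with a positive element fell to 22 without elements that have a near-identical match elsewhere (90% identity over 80% of the length). They fell to 22 with only the 5′ end of each gene record as its start, and to 17 within 25 kb. Unc13d, which primes granules for release, had the lowest q-value of a positive element, 3.92e-10, at 1.31 kb upstream with log2 2.31. Serpinb9, the inhibitor of granzyme B, had an element 1.72 kb upstream with log2 2.53 and a q-value of 4.39e-10, and Serpinb9b and Serpinb6b reached the same element. Nkg7, a granule membrane protein gene, had one 37.3 kb upstream (log2 1.89), and Runx3, a regulator of cytotoxic T cells, one 49.2 kb downstream (log2 1.65). Some of these genes also reached negative elements. Runx3 had 2, that of lowest q-value at 0.133 kb from a start (log2 -1.20, q-value 0.000930), Unc13d had 2 (lowest q-value at log2 -1.89), Nkg7 had 1 (log2 -0.91, 6.33 kb downstream) and the 3 Serpin genes had none.

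Gzmm, the granzyme gene outside the members, had no positive element, like Gzme and Prf1. It had 3 negative ones, that of lowest q-value at log2 -1.75 and 23.4 kb downstream. Of all protein-coding genes 39.9% had a negative element in reach. Ctsw and Lamp1 had the lowest q-values of negative elements in the list, at log2 -1.83 and -1.27, and both genes also reached a positive element. Ctsc encodes cathepsin C, which activates granzymes by removing their propeptide, and no element was listed near it. At Srgn, which encodes the granule proteoglycan serglycin, the positive element of lowest q-value lay 1.43 kb downstream of a start with a log2 fold of 1.35, and its negative element, also downstream, had -0.80.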

How the data were processed

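STARR-seq output RNA of activated T-helper 2 cells was measured in 2 libraries of 1 group, grouped by the cell type label. The authors deposited 1 element table on mm10, made from the alignments of both libraries together, per the file lists in the deposited text files. The sources used here name no aligner, element caller or test. The authors' deposited log2 fold (base and direction assumed) and linear q-value were used as given, and the last column is the element's width. Starts count from 1. Depth per library and per element is unknown.

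All 18414 elements on assembled chromosomes lay inside the GRCm38.p6 sequence. Elements were assigned by midpoint to GENCODE M21 transcript starts within 50000 bp, and classed as promoter (1000 bp from a start of a protein-coding transcript), exon, intron or intergenic. The 18 consensus sites were searched on both strands of the whole element, with a search checked on simulated sequences. Copies were sought with BLAST 2.17.0 (90% identity over 80% of the length, or 80% over 50%, and alignments of at least 100 bp inside the loci). Promoters were aligned with Biopython 1.88. Tables were handled with pandas 2.3.3.

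No test was run, because there is 1 condition and no value per library. Counts and medians stand beside those of all elements. Every element is described, the other cytotoxic genes named are the 6 with the lowest q-value of a positive and the 3 of a negative element, and sequences are those of the lowest q-value per locus and direction and of the related pair. Srgn, Ctsc and Crtam, the spacing of AP-1 and ISRE, the looser copy search and the further sequences were picked with their values in view. The members and lists were chosen with earlier results of these data known. The input experiment was not analysed here.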

Additional observations from a re-analysis of the deposited data

How the results depend on the processing

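Of 63 alternative values, 49 stayed within the limits used for a like value (1.5 times a count, or 0.54 for the log2 median, the SD over the 10 elements). Part of these could not change, since some settings left every granzyme and perforin element in place. No such element had a near-identical match elsewhere, and none lay within 500 bp of another of its sign. None reached the cut for repeat-masking, although the one 13.8 kb upstream of Gzmb came close at 49.1%. With a q-value below 0.001, positive elements fell to 6, granzyme genes with one to 4 (Gzma, Gzmk, Gzmb and Gzmc), and elements with AP-1, STAT or ISRE to 5. With an absolute log2 fold of at least 1, the elements numbered 6 and those with such a site 4. Within 25 kb, 5 elements had such a site, and within 100 kb there were 2 negative elements, both near Prf1. Read as a natural log, the median fold would be log2 1.80. With the ratio turned, chosen after seeing the data, there would be 1 positive and 10 negative elements, 1 gene with a positive element (Prf1), 13 other cytotoxic genes with one, 0 positive elements with such a site, and a median of -1.25 for the 10 elements reported as positive. Counting the related pair near Gzmn and Gzmf once, also chosen after seeing the data, left 9 positive elements. Leaving out a library was not possible, since the table has no value per library. No paired analysis was possible because there is 1 group. Depth is unknown, so its effect on each fold cannot be seen.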

Other observations

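Beside the granzyme cluster on chromosome 14 lie genes of mast cell and neutrophil proteases. Of 8 such genes, Cma1, Cma2 and Mcpt1 had a positive element within 50 kb of a start, led by an element 2.64 kb upstream of Cma2 (log2 1.82, q-value 0.000109) that all 3 reach. It held AP-1, RUNX and NFAT matches. Ctsg, Mcpt2, Mcpt4, Mcpt8 and Mcpt9, which lie between these genes and Gzme, had no listed element in reach. None of the 8 had a negative element. Of all protein-coding genes 55.1% had a positive element in reach.

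Just outside the window, between 50 and 100 kb, lay a further 6 elements. The 3 beyond Gzma were positive, with log2 folds of 0.72, 0.55 and 1.28. The 2 beyond Gzmb were positive as well, at 0.72 and 0.97. The 1 beyond Prf1, 83.6 kb away, was negative at -1.03, so that no positive element stood within 100 kb of the perforin gene.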
